A study of Mus musculus with 12 samples.

Results

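The 48 protein-coding mouse genes whose symbol is Psma, Psmb, Psmc, Psmd, Psme, Psmf or Psmg followed by a number were followed in liver after knockdown of Eif3m. They were found by symbol among the 50686 gene identifiers of the count table, and 47 of them had enough counts to be tested, as did 14248 genes in all. The symbol rule takes in 43 subunits, assembly chaperones and regulators, called constitutive members here, of which 42 were tested. It also takes in 5 immunoproteasome genes, Psmb8, Psmb9, Psmb10, Psme1 and Psme2, which were read apart and were all tested. The member not tested was Psmb11, the catalytic subunit of the thymus, with 0 counts in 11 libraries and 1 count in the other. Psmc3ip, Psme2b and 4 pseudogenes fell outside the rule.

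All animals were FVB/N mice, 6 to 8 weeks old, given small interfering RNA (siRNA) packed in lipid nanoparticles. The dose was 0.5 mg/kg by tail vein, at a rate of 1 injection per 5 days. The controls received a luciferase siRNA and the other animals an siRNA to Eif3m, a subunit of the translation initiation factor eIF3. Whole liver RNA was sequenced at day 9 and at day 13 of this schedule, with 3 libraries for each siRNA and day and 12 in all. The labels do not say that the 3 libraries of a group came from separate animals, so the p-values speak only of variation among these libraries, which may be technical. In whole liver, fewer cells of a type and less RNA per cell cannot be told apart.

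The proteasome degrades proteins that carry ubiquitin chains. Its 20S core is a barrel of outer alpha rings, which gate the entrance, and inner beta rings, which hold the proteolytic sites, and its 19S cap binds ubiquitin, unfolds the substrate with a ring of ATPases and feeds it into the core. Interferon induces the immunoproteasome, in which Psmb8, Psmb9 and Psmb10 take the places of the catalytic subunits Psmb5, Psmb6 and Psmb7 and produce peptides for presentation on class I molecules. In the liver, macrophages and other immune cells hold more of it than hepatocytes do in the absence of interferon.

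Knockdown was deep at both days: Eif3m stood at 44.1 to 45.4 CPM (read counts scaled to a common library size) in the day 9 controls and at 4.71 to 4.88 CPM in the day 9 siRNA libraries. Its day 13 levels were 31.2 to 39.8 CPM in controls and 2.19 to 2.52 CPM in siRNA libraries. Total counts were 38783564 to 54538581 per library at day 9 and 7650269 to 9630027 at day 13. The median SD of log2 CPM within a group was 0.127 to 0.144 at day 9 and 0.247 to 0.268 at day 13. Control replicate 3 and siRNA replicate 2 of day 13 stood apart from their groups on the third principal component (−52.0 and −36.9, against 4.7 to 37.6 for the other 4 day 13 libraries). Calls are therefore given without both of them as well. The summed level of 6 hepatocyte markers, among them albumin, ran from 166200 to 193100 CPM in day 13 controls and from 96080 to 157600 CPM in day 13 siRNA libraries. At day 9 it ran from 106900 to 114000 CPM in controls and from 82970 to 91140 CPM in siRNA libraries. Albumin made up most of this sum, with day 13 means of 155300 CPM in controls and 98290 CPM in siRNA libraries. The markers did not fall together: at each day 3 had a fold change below 0 and 3 above. Tat went from a mean of 1688 to 3890 CPM at day 13.

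Levels of the 48 transcripts ranged from no detection to the most abundant core subunits. Divided by transcript length, the 14 constitutive 20S subunits other than Psma8 lay between 20.5 and 104.8 CPM per kb in the day 9 controls, with a median of 73.5. The 17 subunits of the 19S cap lay between 25.6 and 70.9 CPM per kb, with a median of 43.8. Psma2 was the lowest of the 20S subunits and Psmb6 the highest. Assembly chaperones were scarcer on that scale, from 6.31 CPM per kb for Psmd10 to 16.3 CPM per kb for Psmg1. The immunoproteasome catalytic subunits were also scarce, at 14.1 CPM per kb for Psmb9, 21.1 for Psmb8 and 22.6 for Psmb10. Their activator subunits Psme1 and Psme2, at 61.0 and 68.5 CPM per kb, lay at the level of the core. Psma8, the alpha subunit of the testis, was near the limit of detection at 0.301 CPM per kb.

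A minority of these transcripts were called after Eif3m siRNA, all at day 13. At that day Psmb8, Psmb9 and Psmb10 fell to 66.5%, 63.9% and 61.6% of their control means, while 7 constitutive members rose, the activator Psme3 with the smallest p, and 3 fell. A gene was called when its p from edgeR's quasi-likelihood test, adjusted over all 14248 genes, was under 0.05, and fold changes are given as log2 of Eif3m siRNA relative to control, each with a standard error (SE). Of all genes tested, 23.7% were called at day 13, 12.8% higher and 10.9% lower. All 3 siRNA libraries lay above all 3 controls in 17.2% of genes and below them in 16.0%. Against this background 16.7% of the 42 constitutive members were called higher and 7.14% lower, shares near those of all genes, and 3 of the 5 immunoproteasome genes were lower. The median log2 fold change was −0.59 over the 5 immunoproteasome genes and 0.03 over the 42 constitutive members, against 0.00 over all genes. The constitutive median had no stable sign, running from −0.04 to 0.16 over the alternative analyses, while the immunoproteasome median ran from −0.70 to −0.47.

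At day 9 no member was called by edgeR, against 12.8% of all genes (5.94% higher and 6.84% lower). At an unadjusted p under 0.05 there were 10 constitutive members and 0 immunoproteasome genes. Psme3 came closest, with an adjusted p of 0.0527. DESeq2 called 4 constitutive members lower (Psma1, Psmd2, Psmd3 and Psmd7) and Psme3 higher, limma-voom called Psme3 alone, and neither called an immunoproteasome gene. The day 9 levels were lower more often than higher. Of 42 constitutive members 26 had a fold change below 0, against 6881 of 14248 genes in all. The median was −0.09, against 0.01 for all genes. In 17 of the 42 (40.5%) all 3 siRNA libraries lay below all 3 controls, and in 3 (7.14%) above, while for all genes these shares were 21.0% and 22.5%. Fitted on the 6 day 9 libraries alone, edgeR called 9 members lower (Psma1, Psma2, Psma5, Psmb2, Psmb7, Psmd1, Psmd3, Psmd7 and Psmd11) and Psme3 higher. Over the alternative analyses, 471 to 1725 of all genes were called lower at day 9, against 975 in the main fit. The counts from DESeq2 and from the day 9 libraries alone are thus not comparable with the 6.84% above.

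**Figure D1:**
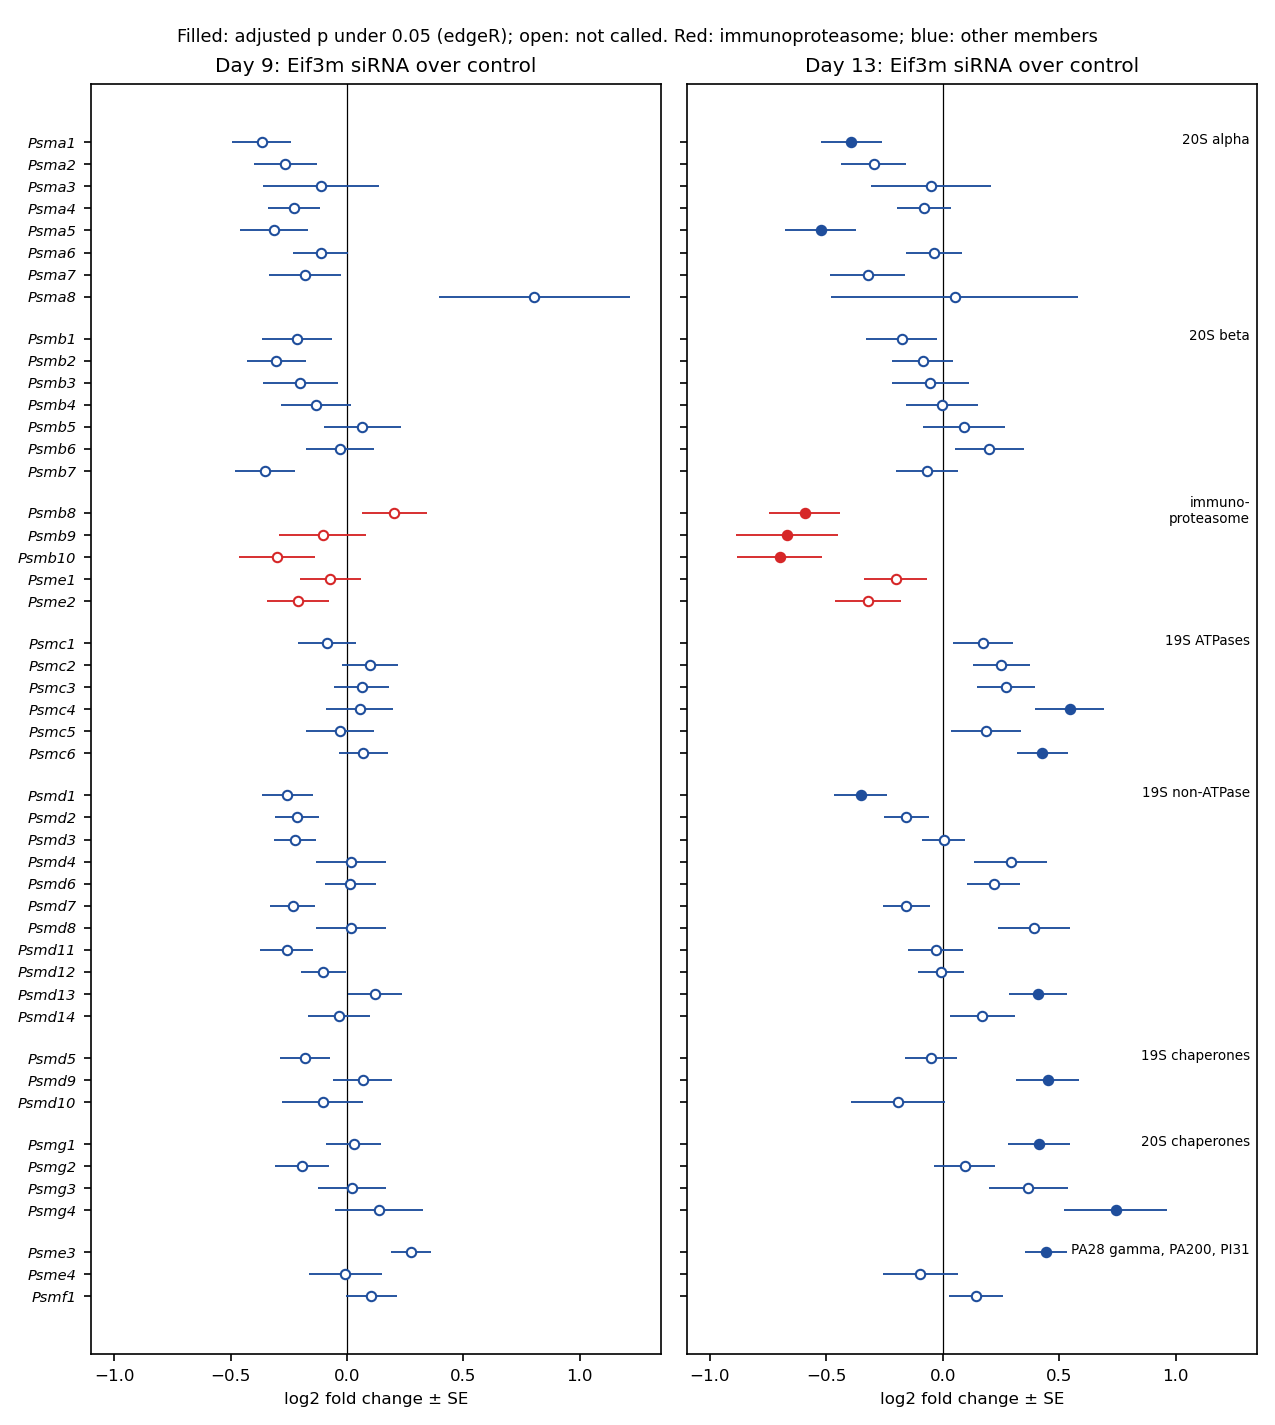
Log2 fold change of Eif3m siRNA over control with its SE for the 47 tested members at day 9 (left) and day 13 (right), grouped by role, with filled points for adjusted p under 0.05. No point is filled at day 9; at day 13 Psmb8, Psmb9 and Psmb10 lie at −0.59 to −0.70 and the 7 filled constitutive points above 0 reach 0.74 for Psmg4.

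Psmb8 encodes the immunoproteasome subunit that replaces Psmb5, the site of chymotrypsin-like activity. The gene (ENSMUSG00000024338) lies on the plus strand of mm10 at chr17:34197721-34201454. Its level was 33.6, 29.5 and 27.2 CPM in the day 13 controls and 23.1, 17.1 and 19.9 CPM in the day 13 siRNA libraries. Every siRNA library lay below every control (log2 fold change −0.59, SE 0.154, adjusted p = 0.0126). At day 9 the levels were 31.1, 33.5 and 38.6 CPM in controls and 45.9, 34.5 and 38.3 CPM in siRNA libraries, which overlapped (0.20, adjusted p = 0.378).

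Psmb10, whose product replaces the trypsin-like subunit Psmb7, lies on the minus strand of mm10 at chr8:105935735-105938444 (ENSMUSG00000031897). It measured 33.0, 23.4 and 20.4 CPM in day 13 controls and 17.9, 14.3 and 15.1 CPM in siRNA libraries of that day. The groups did not overlap, and control replicate 1 was well above the other controls (log2 fold change −0.70, SE 0.182, adjusted p = 0.0129). Day 9 gave the same order without a call: 27.6, 27.8 and 33.5 CPM in controls and 24.9, 20.4 and 26.8 CPM in siRNA libraries, all lower than the controls (−0.30, adjusted p = 0.253).

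Psmb9, whose product replaces the caspase-like subunit Psmb6, lies on the minus strand of mm10 at chr17:34181987-34187764 (ENSMUSG00000096727), next to the peptide transporter gene Tap1. Its day 13 levels were 17.4, 17.4 and 14.95 CPM in controls and 15.4, 7.60 and 8.76 CPM in siRNA libraries. The first siRNA library lay within the control range and the other 2 far below it (log2 fold change −0.67, SE 0.219, adjusted p = 0.0405). Day 9 levels of 17.8, 18.0 and 21.1 CPM in controls and 20.3, 15.5 and 17.2 CPM in siRNA libraries overlapped (−0.10, adjusted p = 0.769). The start regions of Psmb9 and Tap1 face each other, and their 250-base upstream windows share 225 bases and lie wholly in an exon of an annotated Psmb9 transcript. Their transcripts did not move alike: Tap1 rose at day 9 (0.45, adjusted p = 0.0240) and stood at −0.00 at day 13 (adjusted p = 0.992). Exons of the pair overlap on opposite strands and the strand setting of the counting was not given, so reads in the overlap cannot be told apart.

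The alpha and beta subunits of the PA28 activator, which opens the core gate and is interferon-inducible, were not called with all libraries. Psme1 measured 84.1, 91.9 and 77.7 CPM in day 13 controls and 84.3, 57.7 and 78.7 CPM in siRNA libraries, where replicate 2 alone lay below all controls (−0.20, SE 0.135, adjusted p = 0.306). Psme2 measured 54.4, 57.3 and 48.2 CPM in day 13 controls and 52.6, 35.9 and 39.9 CPM in siRNA libraries (−0.32, SE 0.141, adjusted p = 0.117). The first siRNA library overlapped the controls for both genes. At day 9 Psme1 ran from 63.4 to 70.3 CPM in controls and from 59.97 to 67.5 CPM in siRNA libraries, and Psme2 from 63.4 to 70.3 and from 52.5 to 63.1 CPM. The log2 fold changes were −0.07 and −0.21, with adjusted p of 0.772 and 0.340.

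The 3 immunoproteasome calls at day 13 rested on few libraries. Without control replicate 1 none was called (Psmb8 −0.50 with adjusted p = 0.0569, Psmb10 −0.47 with 0.0691, Psmb9 −0.63 with 0.106), and without siRNA replicate 3 Psmb8 alone was called (Psmb10 −0.69 with 0.0512, Psmb9 −0.57 with 0.147). The call of Psmb9 also ended without control replicate 2 (−0.63), siRNA replicate 2 (−0.48), day 9 control replicate 2 (−0.67) or day 9 siRNA replicate 3 (−0.67), and when each day was fitted alone (adjusted p = 0.100). Without siRNA replicate 1, in contrast, Psmb9 was at −1.01 (adjusted p = 0.00147) and Psme2 was called as well (−0.49, adjusted p = 0.0178). Without both libraries that stood apart Psmb8 was at −0.57 (adjusted p = 0.0313) and Psmb10 at −0.79 (0.0147), both still called, and Psmb9 at −0.56 (0.117).

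**Figure D2:**
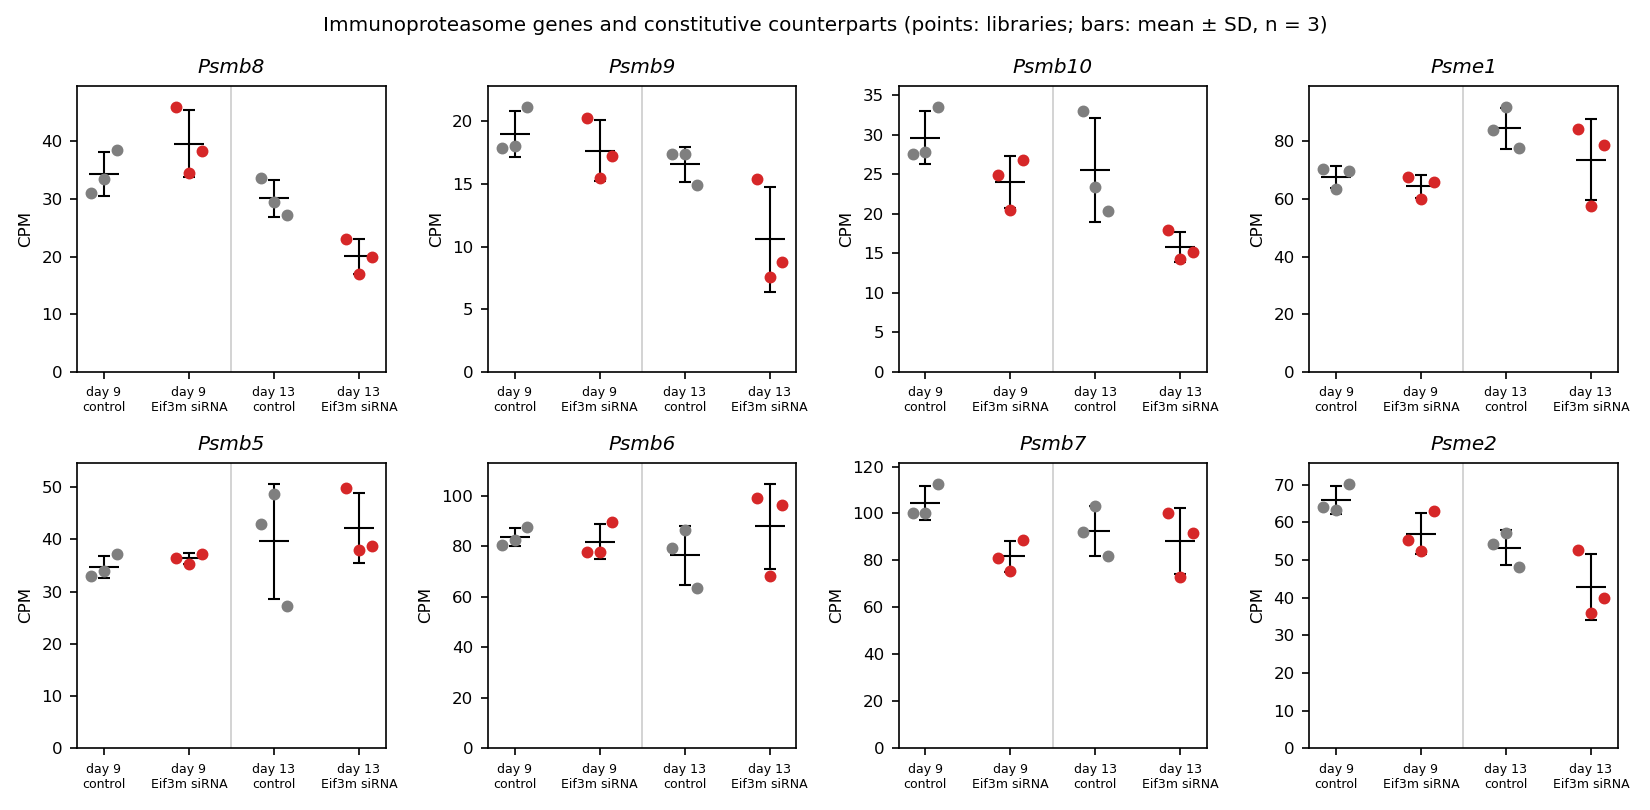
CPM of the 5 immunoproteasome genes and of Psmb5, Psmb6 and Psmb7 in every library (points, with the mean and SD of 3 libraries) by day and siRNA. The 3 day 13 siRNA libraries of Psmb8 (17.1 to 23.1 CPM) and Psmb10 (14.3 to 17.9 CPM) lie below all day 13 controls, while Psmb5, Psmb6 and Psmb7 overlap at that day.

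The constitutive counterparts did not share the fall at day 13. Psmb5 measured 42.9, 48.6 and 27.3 CPM in controls and 49.8, 37.9 and 38.8 CPM in siRNA libraries (0.09, adjusted p = 0.756). Psmb6 measured 79.5, 86.4 and 63.6 CPM in controls and 99.0, 68.4 and 96.4 CPM in siRNA libraries (0.20, adjusted p = 0.364). Psmb7 measured 91.9, 103.3 and 82.1 CPM in controls and 100.4, 72.8 and 91.9 CPM in siRNA libraries (−0.07, adjusted p = 0.768). In each of these genes the groups overlapped, and control replicate 3 and siRNA replicate 2 were the lowest of their groups. At day 9 the levels of Psmb5 were 33.0, 33.9 and 37.1 CPM in controls and 36.4, 35.3 and 37.3 CPM in siRNA libraries, and those of Psmb6 were 80.7, 82.6 and 87.5 CPM and 77.9, 77.9 and 89.8 CPM. Both genes overlapped (0.07 and −0.03). Psmb7 at day 9 measured 100.2, 100.1 and 112.7 CPM in controls and 81.1, 75.6 and 88.7 CPM in siRNA libraries, without overlap (−0.35, SE 0.129, adjusted p = 0.0931).

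Within each pair the immunoproteasome transcript took a smaller share in the siRNA livers of day 13. On CPM per kb, Psmb8 made up 30.2%, 25.1% and 35.5% of Psmb8 plus Psmb5 in the day 13 controls and 20.4%, 19.9% and 22.1% in the siRNA libraries. Psmb9 made up 11.4%, 10.6% and 12.2% of its pair with Psmb6 in controls and 8.40%, 6.16% and 5.09% in siRNA libraries. Psmb10 made up 24.1%, 16.7% and 18.0% of its pair with Psmb7 in controls and 13.6%, 14.8% and 12.7% in siRNA libraries. All 3 shares were lower in every siRNA library than in any day 13 control. They come from the same levels as the calls above and are not independent of them. A test on 3 against 3 libraries cannot give an exact permutation p below 0.1, and none is given. At day 9 the shares were 35.3% ± 1.12 and 37.4% ± 3.197 for Psmb8, 11.8% ± 0.583 and 11.3% ± 1.74 for Psmb9 and 20.03% ± 0.673 and 20.6% ± 1.11 for Psmb10, in controls and siRNA libraries (SD, n = 3), and the groups overlapped in each. Psmb5 shares 54.1% of its 50-base stretches with other genes, chiefly the processed pseudogene Gm3375, so its own level is uncertain. With the counts of Gm3375 added to Psmb5, the Psmb8 share at day 13 was 21.3% ± 2.54 in controls and 13.8% ± 0.678 in siRNA libraries (SD, n = 3).

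**Figure D3:**
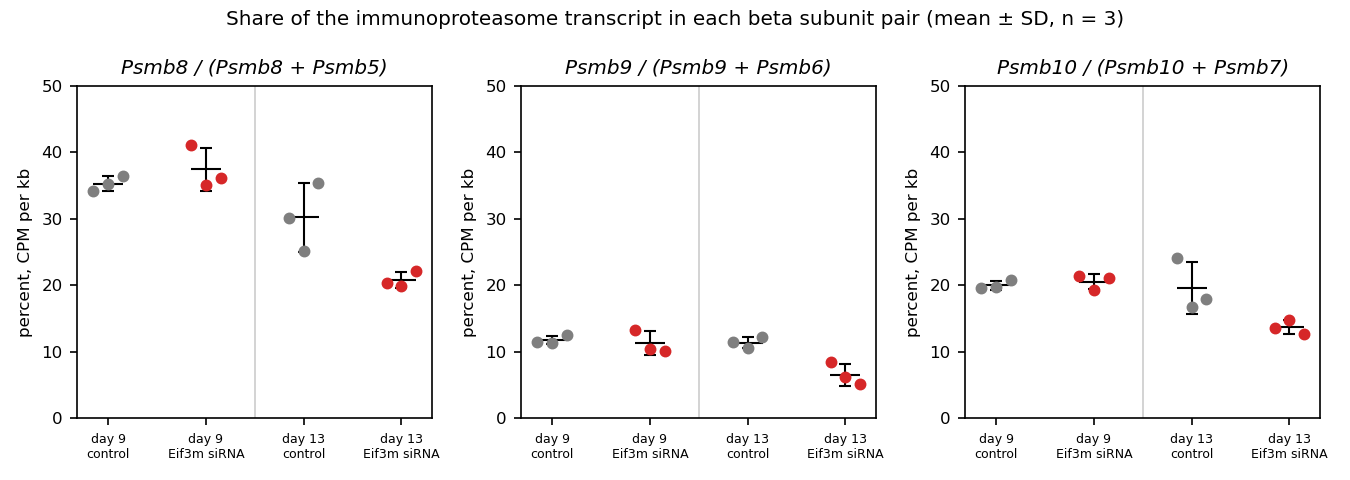
Share of Psmb8, Psmb9 and Psmb10 in the sum with their constitutive counterpart, in percent of CPM per kb, for each library (points, with the mean and SD of 3 libraries). At day 13 each siRNA library lies below each control in all 3 panels; at day 9 the groups overlap.

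The upstream sequences of the immunoproteasome genes were searched, since the 3 that fell are known interferon targets. RefSeq windows of 250 bases before the start (GRCm38.p6) were found for 40 of the 48 members, 43 windows in all, 6 of them for the 5 immunoproteasome genes. The interferon-stimulated response element, searched on both strands as GAAA, any 2 bases and GAAA, was in 2.98% of all 32841 windows, in 3 of the 43 member windows (Psmb3, Psmd4 and Psmd9) and in 0 of the 6. The STAT site TTCNNNGAA, also on both strands, was in 7.02% of all windows and in 2 member windows, those of Psmg1 and Psmb8. The match in Psmb8 lies 97 bases before the RefSeq start used but inside the gene as GENCODE M21 gives it, since the whole window falls in an exon of an annotated Psmb8 transcript. The letters around it, at chr17:34198088-34198117 on the plus strand, are shown with the match in capitals.
Psmb8 site: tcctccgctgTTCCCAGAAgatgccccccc
The region before Psmb10, at chr8:105938445-105938642 on the minus strand, is shown without 52 bases that lie in an annotated Psmb10 exon. It had none of the motifs searched and is given because this gene had the largest fall at day 13 among the members.
Psmb10 upstream: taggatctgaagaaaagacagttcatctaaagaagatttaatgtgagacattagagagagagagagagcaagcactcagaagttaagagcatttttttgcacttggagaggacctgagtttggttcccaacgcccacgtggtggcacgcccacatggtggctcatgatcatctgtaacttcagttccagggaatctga
A match is a run of letters and not a measured binding site, and no match says only that these letters are not in the window.

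Other genes of the interferon and class I pathways were read beside the immunoproteasome. The shares of all genes called were 5.94% higher and 6.84% lower at day 9, and 12.8% and 10.9% at day 13. Of 23 tested interferon-stimulated genes, 11 fell at day 13 and 0 rose, with a median of −0.81. Among them were the immunity-related GTPases Iigp1 (−1.67), Igtp (−1.74) and Irgm1 (−1.37) and the deubiquitinase of ISG15, Usp18 (−1.74). Day 9 was divided, with 4 higher, such as the chemokine Cxcl9 (1.19) and the GTPase Gbp2 (0.80), and 4 lower, such as Ifit3 (−1.16) and Irgm1 (−0.72), and a median of −0.19. In interferon signalling 6 of 14 genes fell at day 13 and 1 rose. Irf1, which drives immunoproteasome genes, measured 34.5, 37.1 and 25.6 CPM in day 13 controls and 25.6, 21.98 and 22.1 CPM in siRNA libraries (−0.48, SE 0.148, adjusted p = 0.0317). The first siRNA library and the third control were at about the same level. At day 9 Irf1 stood at −0.43 (SE 0.137, adjusted p = 0.0557), not called, with every siRNA library below every control. Its difference between the days was −0.05 (adjusted p = 0.933). The kinase Jak1 rose at both days (0.46 and 0.49). In class I presentation 3 of 14 genes fell at day 13, the peptide-loading factor Tapbp (−1.01, adjusted p = 0.000114), the transporter Tap2 (−0.52, 0.0102) and the heavy chain H2-K1 (−0.69, 0.0139). At day 9 Tap1 (0.45) and H2-D1 (0.52) rose and 0 fell.

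Markers of macrophages and of dendritic cells, which carry immunoproteasomes, were also lower at day 13, and their part in the result was not tested. The resident liver macrophages, Kupffer cells, were read by 12 markers, of which 10 fell at day 13 and 4 at day 9, and 0 rose. Their summed level ran from 385.3 to 477.3 CPM in day 13 controls and from 161.8 to 253.5 CPM in siRNA libraries. The day 9 sums ran from 384.2 to 470.6 and from 298.9 to 360.1 CPM. Clec4f alone held means of 98.3 and 24.6 CPM at day 9 and of 93.0 and 28.8 CPM at day 13. Of 9 genes of MHC class II and dendritic cells, 4 fell at day 13 and 3 rose at day 9, with summed levels of 185.5 to 291.5 and 65.7 to 124.8 CPM at day 13. At day 9 these sums were 193.2 to 245.6 and 228.5 to 319.2 CPM. Of 9 tested monocyte markers 3 rose at day 9 and 1 fell at day 13, with summed levels of 57.6 to 72.4 and 127.4 to 145.9 CPM at day 9 and 124.0 to 171.8 and 88.2 to 99.3 CPM at day 13. Markers of T and NK cells, B cells and neutrophils had 0 members called by edgeR at either day, with 1 B cell marker at an unadjusted p under 0.05. Of 7 markers of liver endothelium 1 rose at day 9 and 3 fell at day 13, and of 6 of stellate cells 1 rose and 2 fell. None of the lists had a marker at 0 in every library. Over all genes, 5.94% were called higher and 6.84% lower at day 9, and 12.8% and 10.9% at day 13. The 5 immunoproteasome genes together stood at 216.7 ± 14.4 and 202.7 ± 17.3 CPM in the controls and siRNA libraries of day 9 and at 210.1 ± 18.9 and 162.7 ± 30.4 CPM at day 13 (SD, n = 3).

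**Figure D4:**
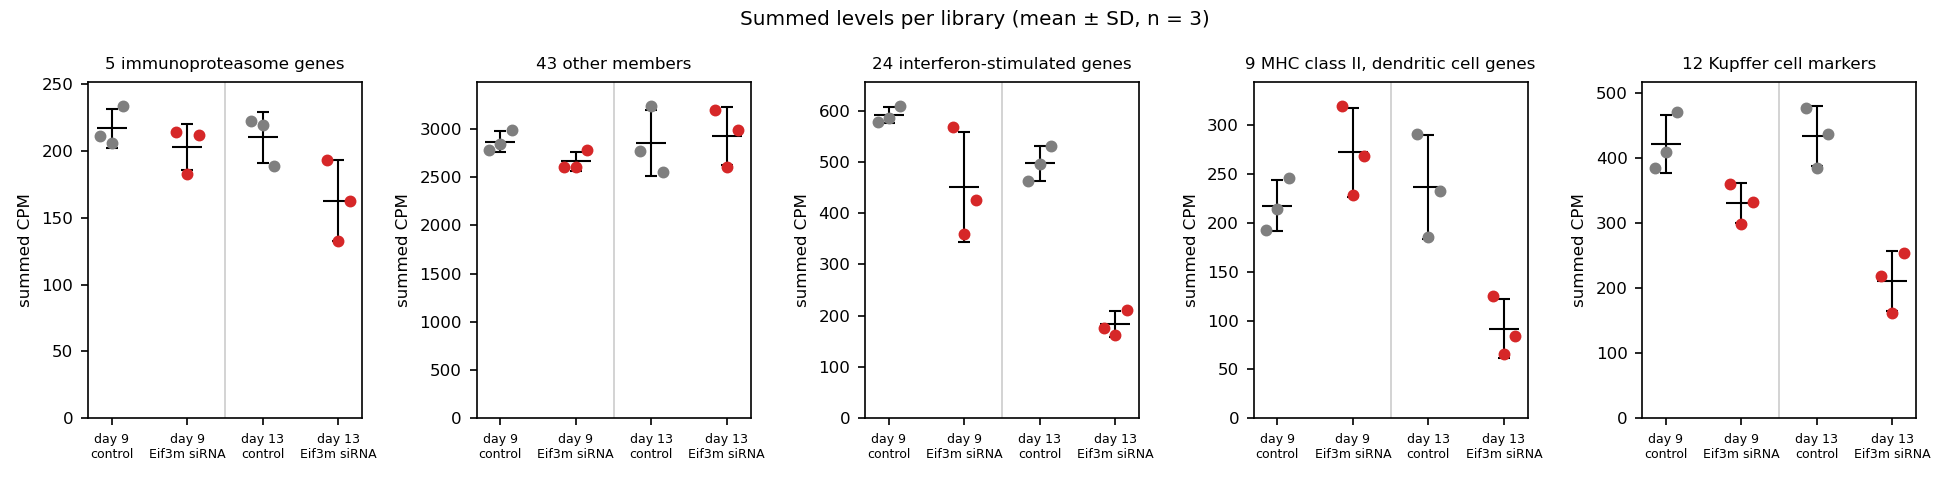
Summed CPM of the 5 immunoproteasome genes, the 43 other members, 24 interferon-stimulated genes, 9 MHC class II and dendritic cell genes and 12 Kupffer cell markers in each library (points, with the mean and SD of 3 libraries). The interferon-stimulated sum was 496.9 CPM in day 13 controls and 183.8 CPM in day 13 siRNA libraries, while the 43 other members stood at 2853 and 2925 CPM. Iigp1 alone held 267.7 and 84.2 CPM of the interferon-stimulated sums, and Cd74 held 169.5 and 65.6 CPM of the MHC class II sums of day 13.

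In the constitutive 20S core 2 subunits fell at day 13 and none was called at day 9. Of its 14 members other than Psma8, 13 had a fold change below 0 at day 9 and 12 at day 13, with medians of −0.21 and −0.07. Among all 14248 genes, 6881 lay below 0 at day 9 and 7097 at day 13, and 10.9% were called lower at day 13. In 9 of the 14 all siRNA libraries of day 9 lay below all controls, against 21.0% of all genes. Both calls were in the alpha ring. Psma1 measured 74.7, 97.9 and 85.4 CPM in day 13 controls and 73.3, 55.8 and 67.7 CPM in siRNA libraries (−0.39, SE 0.131, adjusted p = 0.0431). At day 9 it measured 73.1, 75.9 and 84.1 CPM in controls and 61.1, 55.7 and 64.2 CPM in siRNA libraries (−0.37, adjusted p = 0.0751). The groups did not overlap at either day, although the highest siRNA and the lowest control library nearly met at day 13. Psma5 measured 58.3, 74.4 and 46.5 CPM in day 13 controls and 41.3, 38.2 and 44.9 CPM in siRNA libraries (−0.52, SE 0.152, adjusted p = 0.0228), and 55.9, 56.4 and 58.4 against 45.3, 40.8 and 51.3 CPM at day 9 (−0.31, adjusted p = 0.179). It too had no overlap at either day. As 50% of the 50-base stretches of Psma5 recur in other genes, mostly pseudogenes with at most 15 counts in a library, its counts may be split. Psma2, Psma4, Psma6 and Psma7 lay at −0.26, −0.23, −0.11 and −0.18 at day 9 and at −0.30, −0.08, −0.04 and −0.32 at day 13.

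Psma3 had the widest spread of the core at day 13, with 76.7, 97.6 and 44.0 CPM in controls and 48.5, 92.9 and 68.1 CPM in siRNA libraries. Its pseudogene copy Gm13835 ran the other way, with 31.6, 40.6 and 61.6 CPM in controls and 65.7, 8.81 and 49.9 CPM in siRNA libraries. Their sum was steadier, at 108.3, 138.2 and 105.6 CPM in controls and 114.3, 101.7 and 118.0 CPM in siRNA libraries. The fold changes of Psma3 alone (−0.11 at day 9 and −0.05 at day 13) are thus uncertain.

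In the beta ring no constitutive member was called by edgeR at either day. At an unadjusted p under 0.05 there were 2 members at day 9, Psmb2 and Psmb7, and 0 at day 13. DESeq2 and limma-voom called none at day 9. The noncatalytic subunits Psmb1, Psmb2, Psmb3 and Psmb4 lay at −0.21, −0.30, −0.20 and −0.13 at day 9 and at −0.18, −0.09, −0.05 and −0.00 at day 13. Summed over the 7 beta subunits, the level was 541.4 to 598.7 CPM in controls and 469.7 to 537.1 CPM in siRNA libraries of day 9, without overlap, and 468.8 to 666.6 and 457.5 to 654.3 CPM at day 13, where the ranges nearly coincided.

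The 6 ATPases of the 19S cap form the ring that unfolds substrates. All 6 had a fold change above 0 at day 13, from 0.17 to 0.55, and 2 of them rose. For all genes, 7115 of 14248 lay above 0 at that day and 12.8% were called higher. Psmc4 measured 65.9, 76.1 and 50.6 CPM in day 13 controls and 107.1, 77.4 and 96.5 CPM in siRNA libraries (0.55, SE 0.149, adjusted p = 0.0168). Psmc6 measured 45.1, 52.9 and 44.4 CPM in controls and 63.5, 63.6 and 64.3 CPM in siRNA libraries (0.43, SE 0.111, adjusted p = 0.0127). Neither overlapped, and the siRNA libraries of Psmc6 were close together. At day 9 Psmc4 measured 64.1, 61.3 and 68.5 CPM in controls and 64.2, 68.4 and 68.8 CPM in siRNA libraries, and Psmc6 64.7, 77.0 and 78.5 CPM and 73.4, 76.7 and 81.1 CPM. Both overlapped and lay at 0.05 and 0.07. Psmc1, Psmc2, Psmc3 and Psmc5 stood at 0.17, 0.25, 0.27 and 0.19 at day 13 and at −0.08, 0.10, 0.06 and −0.03 at day 9.

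Among the 11 other 19S subunits 1 rose and 1 fell at day 13, when 12.8% of all genes were called higher and 10.9% lower. Psmd13, a subunit of the lid that covers the cap, measured 45.4, 50.9 and 47.1 CPM in controls and 74.1, 54.0 and 62.6 CPM in siRNA libraries (0.41, SE 0.123, adjusted p = 0.0271). Its exons overlap those of Sirt3 on the other strand. Psmd1, a large scaffold of the base, measured 89.9, 123.5 and 112.7 CPM in controls and 89.0, 82.5 and 84.0 CPM in siRNA libraries (−0.35, SE 0.114, adjusted p = 0.0382). The groups were apart in both genes, for Psmd1 by less than 1 CPM. Day 9 levels were 47.0, 50.02 and 55.5 against 55.6, 53.0 and 57.3 CPM for Psmd13 (0.12), which overlapped, and 112.7, 116.8 and 118.6 against 93.9, 97.7 and 99.99 CPM for Psmd1 (−0.26, adjusted p = 0.154), which did not. Of the others, Psmd8 came nearest to the threshold at day 13 (0.39, adjusted p = 0.0807). The ubiquitin receptor Psmd4 and the deubiquitinase Psmd14 lay at 0.29 and 0.17, and Psmd2 and Psmd7 both at −0.16. Over all 17 subunits of the cap the median was −0.03 at day 9 and 0.19 at day 13, with 9 and 5 members below 0.

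Assembly chaperones rose in 3 of 7 cases at day 13 and in 0 at day 9, against 12.8% and 5.94% of all genes. Psmg1 pairs with Psmg2, and Psmg3 with Psmg4, to build the alpha ring. Psmg4 measured 7.67, 7.84 and 4.01 CPM in day 13 controls and 12.4, 9.64 and 10.3 CPM in siRNA libraries, the largest rise of any member (0.74, SE 0.220, adjusted p = 0.0255). Psmg1 measured 15.5, 17.8 and 13.2 CPM in controls and 20, 18.6 and 23.1 CPM in siRNA libraries (0.41, SE 0.133, adjusted p = 0.0374). In both the siRNA libraries lay above all controls, and control replicate 3 was the lowest library. At day 9 Psmg4 measured 5.35, 4.53 and 5.33 against 5.58, 5.10 and 6.05 CPM and Psmg1 17.5, 16.1 and 17.5 against 16.8, 17.1 and 18.2 CPM, with overlap (0.14 and 0.03). Psmg2 and Psmg3 lay at 0.09 and 0.37 at day 13 (adjusted p = 0.651 and 0.134) and at −0.19 and 0.02 at day 9. Pomp, the maturation factor of the 20S core outside the symbol rule, measured 90.3, 94.1 and 101.2 CPM in day 9 controls and 65.6, 62.3 and 75.1 CPM in siRNA libraries, well apart but not called (−0.49, SE 0.155, adjusted p = 0.0525). At day 13 it overlapped (−0.28, adjusted p = 0.231).

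Psmd9, a chaperone of the 19S base, measured 32.8, 31.5 and 27.1 CPM in day 13 controls and 49.0, 34.5 and 41.6 CPM in siRNA libraries (0.45, SE 0.136, adjusted p = 0.0279). Its siRNA libraries all lay above the controls, replicate 2 by the least. At day 9 it measured 34.7, 33.1 and 30.9 CPM in controls and 34.7, 31.8 and 37.0 CPM in siRNA libraries, with overlap (0.07). The other base chaperones, Psmd5 and Psmd10, stood at −0.05 and −0.19 at day 13 and at −0.18 and −0.10 at day 9. Its upstream window is shown because it was the single member window with both the interferon-stimulated response element and the core of the antioxidant response element, the site of NFE2L1 and NFE2L2, which drive proteasome genes. That core was searched as TGACNNNGC on both strands and was in 10.2% of all windows and in 5 of the 43 member windows (Psmb5, Psmb6, Psmc6, Psmd12 and Psmd9). The window spans chr5:123227940-123228189 on the plus strand, and capitals mark both matches. It lies before the RefSeq start used but inside the gene as GENCODE M21 gives it (chr5:123169413-123250131).
Psmd9 upstream: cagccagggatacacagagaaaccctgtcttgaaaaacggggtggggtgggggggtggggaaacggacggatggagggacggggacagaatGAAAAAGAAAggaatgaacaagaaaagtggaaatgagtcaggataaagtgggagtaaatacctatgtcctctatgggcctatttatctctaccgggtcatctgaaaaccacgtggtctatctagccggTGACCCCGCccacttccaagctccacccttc

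Psme3 encodes PA28 gamma, the nuclear activator that opens the core without ubiquitin or ATP. The gene (ENSMUSG00000078652) lies on the plus strand of mm10 at chr11:101316213-101323537. Its level was 64.7, 67.3 and 68.5 CPM in day 13 controls and 90.9, 90.6 and 91.1 CPM in siRNA libraries. At day 9 it was 48.5, 52.6 and 53.3 CPM in controls and 62.3, 62.8 and 61.7 CPM in siRNA libraries. The groups were well apart at both days, and the spread within them was small even among the day 13 libraries. It rose by 0.44 on the log2 scale at day 13 (SE 0.0892, adjusted p = 0.00277) and stood at 0.27 at day 9 (SE 0.0867, adjusted p = 0.0527). The day 13 call held in all 22 alternative analyses, with values of 0.39 to 0.45 and an adjusted p of at most 0.0397. At day 9 it was called in 8 of 22, among them DESeq2, limma-voom, the day 9 libraries alone and the fit without day 13 control replicate 3 (0.28, adjusted p = 0.0393). The nuclear partner of PA28 gamma, Fam192a, rose at day 13 as well (0.43, SE 0.118, adjusted p = 0.0173), from 24.2, 22.2 and 20.2 CPM to 30.9, 26.2 and 32.7 CPM. The other activator, Psme4 or PA200, ran from 69.3 to 108.0 CPM in day 13 controls and from 71.8 to 102.6 CPM in siRNA libraries (−0.10), and the inhibitor Psmf1 or PI31 stood at 0.14. The 250 bases before Psme3, at chr11:101315963-101316212 on the plus strand, hold none of the 3 motifs and are given because its rise was the most stable among the members.
Psme3 upstream: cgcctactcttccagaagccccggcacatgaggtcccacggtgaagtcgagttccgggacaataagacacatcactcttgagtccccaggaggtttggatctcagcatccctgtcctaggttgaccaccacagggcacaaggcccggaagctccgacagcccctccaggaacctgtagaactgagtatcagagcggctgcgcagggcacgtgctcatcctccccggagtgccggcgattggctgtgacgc

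**Figure D5:**
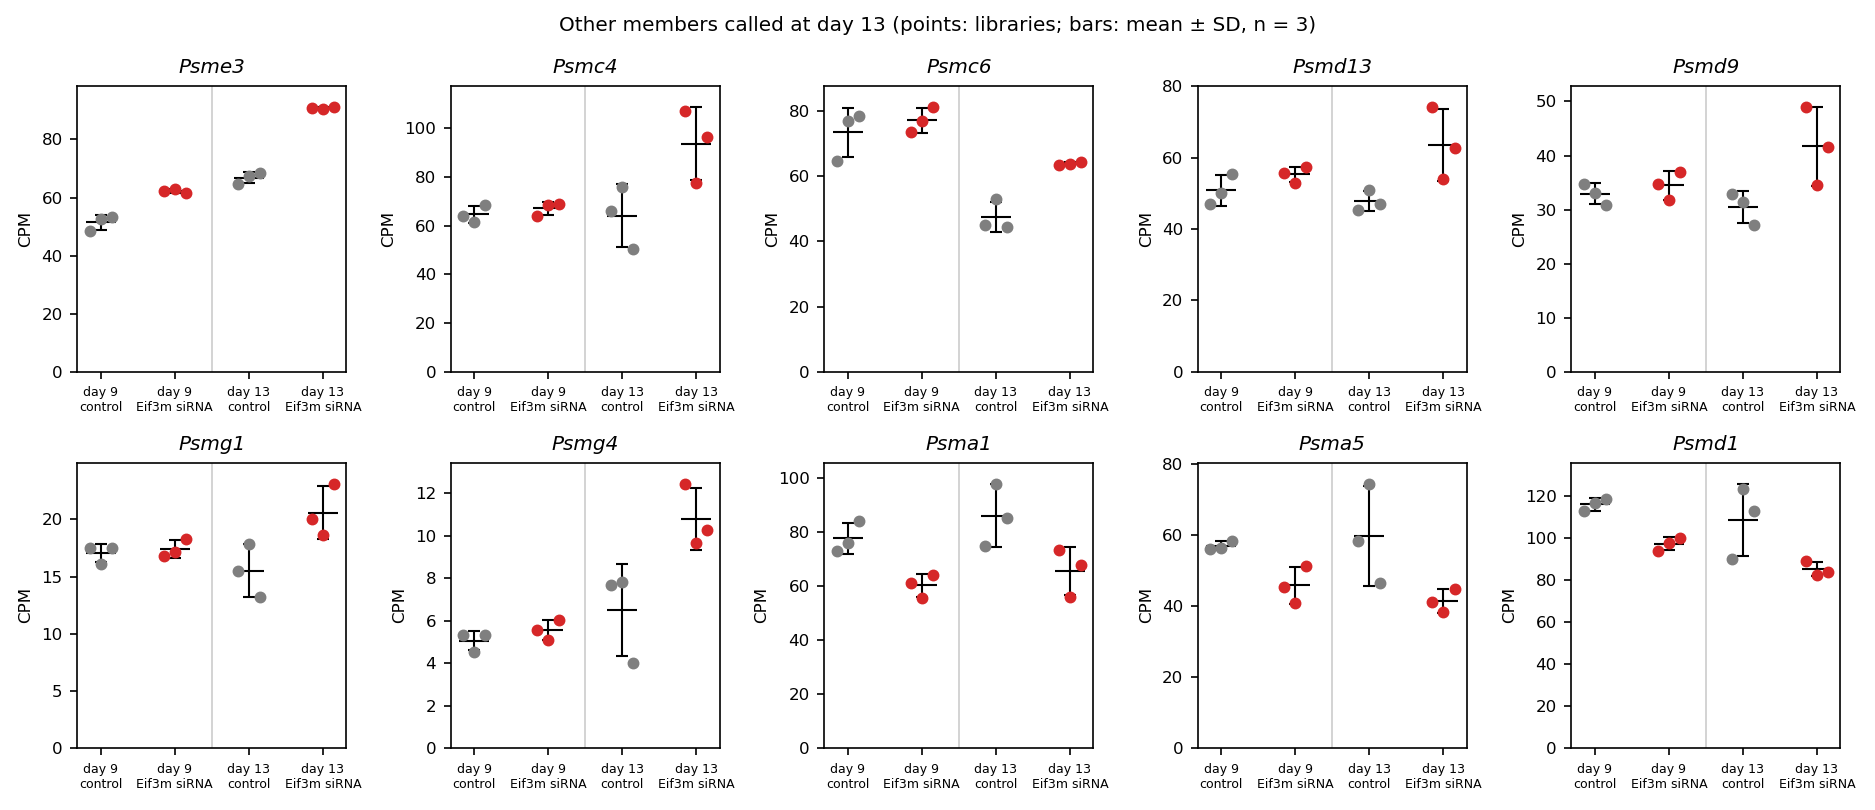
CPM in every library (points, with the mean and SD of 3 libraries) of the 10 constitutive members called at day 13. Psme3 libraries cluster at 90.6 to 91.1 CPM after Eif3m siRNA at day 13 against 64.7 to 68.5 CPM in controls, while Psmc4, Psmd13, Psmd9 and Psmg4 spread widely.

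Apart from Psme3 and Psmc6, each of the 10 constitutive calls at day 13 ended when some single library was left out, always with its sign kept. Without control replicate 3 the fold changes of Psmc4, Psmd13, Psmd9, Psmg1 and Psmg4 were 0.38, 0.38, 0.35, 0.29 and 0.45, and those of Psma1 and Psmd1 were −0.42 and −0.34, and none passed. Control replicate 1 ended the calls of Psma5 (−0.54), Psmd13 (0.38) and Psmg1 (0.42), and control replicate 2 those of Psma1 (−0.29), Psma5 (−0.33), Psmd1 (−0.25) and Psmd9 (0.48). Leaving out siRNA replicate 1 ended those of Psmc4 (0.44), Psmd13 (0.29), Psmd9 (0.33), Psmg1 (0.44), Psmg4 (0.64), Psma5 (−0.52) and Psmd1 (−0.38). Leaving out siRNA replicate 2 ended those of Psma1 (−0.30), Psma5 (−0.48) and Psmd1 (−0.34). Without siRNA replicate 3 Psmc4 (0.51), Psmd13 (0.41), Psmd9 (0.44), Psmg1 (0.31), Psmg4 (0.76), Psma1 (−0.43) and Psmd1 (−0.35) were not called. Day 9 libraries share the estimate of the spread, and Psma1 or Psmg1 was also lost without day 9 control replicate 2 or any 1 of the day 9 siRNA libraries (−0.41 to −0.39 for Psma1 and 0.40 for Psmg1). Without both libraries that stood apart 5 members were called higher (Psme3, Psmc4, Psmd13, Psmd9 and Psmd8) and 2 lower (Psma5 and Psma3), and Psmc6 was not among them (0.37, adjusted p = 0.0553). On the 6 day 13 libraries alone Psme3 was the 1 constitutive call.

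The change between the days was tested as an interaction, subtracting the effect at day 9 from that at day 13. It was called for 2.55% of all genes (0.898% higher and 1.66% lower). The library names carry different codes at day 9 and day 13, and total counts were far higher at day 9. Time therefore cannot be told apart from other differences between the libraries of these days. No member was called by edgeR. At an unadjusted p under 0.05 there were 3 constitutive members, Psmc4, Psmc6 and Psmg1, and 1 immunoproteasome gene, Psmb8. DESeq2 called Psmb8 and limma-voom none. The direction was unevenly split: 34 of 42 constitutive members had a difference above 0, with a median of 0.16 (0.08 to 0.27 over the alternatives), and all 5 immunoproteasome genes lay below 0, with a median of −0.40. Of all 14248 genes 7578 had a difference above 0, and the all-gene median was 0.03. For Psmb8 the difference was −0.80 (SE 0.208, adjusted p = 0.0582), and it was called without day 13 control replicate 3 (−0.89, adjusted p = 0.0495).

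Among 19 genes that bind, supply or import proteasomes and lie outside the symbol rule, 6 rose and 1 fell at day 13. At day 9, 2 rose and 0 fell. For all genes, 12.8% were called higher and 10.9% lower at day 13, and 5.94% and 6.84% at day 9. Zfand5, a zinc finger protein that stimulates the 26S proteasome, measured 28.4, 34.8 and 35.8 CPM in day 13 controls and 64.2, 76.4 and 89.4 CPM in siRNA libraries, all far above the controls (1.22, SE 0.140, adjusted p = 4.82e-05). Its day 9 fold change of 0.29 was smaller, and the difference of 0.92 was called (adjusted p = 0.0251). Akirin2, which carries proteasomes into the nucleus, rose at both days, from 14.5, 17.5 and 16.3 CPM to 22.03, 22.7 and 21.7 CPM at day 9 (0.46, adjusted p = 0.0181) and from 16.7, 15.4 and 14.5 CPM to 24.8, 23.7 and 29.9 CPM at day 13 (0.75, adjusted p = 0.000815). The shuttle factors Rad23b (0.36), which brings ubiquitylated proteins to the cap, and Ubqln1 (0.36) rose at day 13, and Ubqln2 fell (−0.62). Zfand2a rose at day 9 (0.62).

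Transcripts of NFE2L1 and of genes that control it were read as well, and the activity of their proteins was not tested. Nfe2l1, the factor that induces proteasome genes when degradation is impaired, measured 108.1, 96.8 and 113.8 CPM in day 13 controls and 100.3, 105.6 and 89.7 CPM in siRNA libraries, with overlap (−0.11, adjusted p = 0.490). At day 9 it stood at −0.03 (adjusted p = 0.903). Nfe2l2 stood at 0.10 and 0.34 (adjusted p = 0.675 and 0.0728). Of the 14 tested genes of this list 2 fell at day 9 and 2 fell and 2 rose at day 13. Of all genes, 6.84% were lower at day 9, and 10.9% were lower and 12.8% higher at day 13. Keap1, the adaptor that restrains NFE2L2, fell at both days (−0.58 and −0.69), as did Vcp, the p97 ATPase that extracts NFE2L1 from the endoplasmic reticulum (−0.39 and −0.40). Ngly1, which removes sugars from NFE2L1, and the ubiquitin ligase component Fbxw7 rose at day 13 (0.36 and 0.76). Of 15 genes of p97 and its cofactors, Vcp included, 1 fell at each day and 3 rose at day 13, Faf1 (0.72), Ufd1 (0.59) and Derl1 (0.54).

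Of 6 genes of ubiquitin and its activating enzymes, which start every ubiquitin chain, 1 rose at day 9 and 3 at day 13, and 0 fell. Higher calls made up 5.94% of all genes at day 9 and 12.8% at day 13. The polyubiquitin gene Ubb measured 169.4, 170.6 and 174.3 CPM in day 9 controls and 235.5, 228.2 and 244.8 CPM in siRNA libraries (0.46, adjusted p = 0.0398). At day 13 it measured 114.5, 120.7 and 97.9 CPM in controls and 187.7, 127.0 and 184.6 CPM in siRNA libraries (0.58, adjusted p = 0.00781). The groups were apart at both days. Rps27a (0.78), which encodes ubiquitin fused to a ribosomal protein, rose at day 13.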

How the data were processed

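The authors deposited estimated counts per Ensembl gene for 12 libraries. STAR 2.5.3a, RSEM 1.3.0 and the build mm10 are listed, per the submitters' processing notes. No source used here names the annotation or the strand setting. Because all values were whole, they were treated as rounded expected counts of the authors. Of 50686 identifiers, 50462 matched GENCODE M21, which gave symbols, positions and transcript lengths, and the other 224 held 0.0199% of the counts. Genes were kept by filterByExpr (edgeR 4.0.16, minimum count 10), scaled by TMM and tested with robust quasi-likelihood fits of 4 groups with 8 residual degrees of freedom. Tests were two-sided, with Benjamini-Hochberg adjustment over 14248 genes. The steps were tested on simulated data. Alternatives were DESeq2 1.42.0 size factors, upper-quartile scaling, no filter, a floor of 5 CPM on the mean, the DESeq2 test, limma-voom (limma 3.58.1), a replicate block, each day alone, thinned day 9 counts and each library left out. Leaving out both day 13 libraries that stood apart was chosen after seeing the data.

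Named with all libraries were the 5 immunoproteasome genes, their 3 counterparts and the called members. From each other list up to 4 called genes per comparison were named, plus Nfe2l1, Nfe2l2, Pomp, Tap1 and Irf1, and other names were chosen after their values were seen. Some genes that this rule names are not reported here. Members and lists were chosen with earlier results of these data known. Libraries of 1 group always differed by more than counting noise. Software was R 4.3.3 and Python 3.11.15 with matplotlib 3.10.9.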

Additional observations from a re-analysis of the deposited data

Results flagged for a closer look

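Among the members and the genes of the lists read here, 18 had a siRNA effect that differed between the days. This was by edgeR's test of the difference itself (adjusted p under 0.05), and none was a member of the proteasome family. Of all genes tested, 2.55% had such a difference. The lists were chosen with earlier results of these data known, so the 18 do not come from an unselected set. The difference, day 13 minus day 9 on the log2 scale, was 0.92 for the proteasome activator Zfand5. It was below 0 for the interferon-stimulated genes Usp18 (−1.41), Ifi47 (−1.34), Cxcl9 (−2.01), Tgtp1 (−2.78), Gbp2 (−1.24), Iigp1 (−1.09) and Igtp (−1.22). It was also below 0 for the macrophage genes Adgre1 (−1.53), Csf1r (−1.39), Ccr2 (−1.64) and Lyz2 (−2.00), for the antigen-presenting cell genes H2-Aa (−1.67), Cd74 (−1.70) and Itgax (−3.72), for the endothelial gene Lyve1 (−2.07) and for the collagens Col1a1 (−2.34) and Col3a1 (−1.70). Library codes and depth also differed between the days, so these differences cannot be laid to time alone. Groups of 3 libraries were not tested for single outlying samples.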

How the results depend on the processing

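No called fold change changed sign. The constitutive median at day 13, 0.03, has no test and went below 0 with upper-quartile scaling (−0.025), a floor of 5 CPM (−0.02), both apart libraries left out (−0.02) or day 13 control replicate 3 left out (−0.04). Constitutive members called higher at day 13 numbered 7, and 4 with the replicate block, 1 on each day alone and 2 to 10 without 1 library. Those lower numbered 3, and 1 without a filter, 0 with the replicate block, 0 on each day alone and 0 to 3 without 1 library. At day 9, where none was called, 1 was higher with upper-quartile scaling, a floor of 5 CPM on the mean, DESeq2, limma-voom, thinned counts, each day alone or both apart libraries left out (0 to 1 without 1 library), always Psme3. Lower at day 9 were 4 with DESeq2, 9 on each day alone, 6 without both apart libraries and 0 to 2 without 1 library. Immunoproteasome calls at day 13 numbered 3, and 0 to 4 without 1 library; between the days they numbered 0, and 1 without a filter, 1 with DESeq2 and 0 to 1 without 1 library. Replicate numbers did not pair the samples: deviations of same-numbered libraries correlated at −0.158 to 0.158, and no other call of these counts moved by over 1.5 times with the block.

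Over all genes, calls ranged from 413 to 1687 higher and 471 to 1725 lower at day 9, from 1060 to 2031 and 954 to 1808 at day 13, and from 28 to 471 and 89 to 520 between the days. Psmb11 was not tested, with 0 counts in the deeper day 9 libraries and 1 count in a day 13 library.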
